A study of Mus musculus with 20 samples.

Results

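The smooth muscle contractile genes of the mouse ovary were described here as a set of 10 genes, chosen by symbol, out of 54838 genes listed in the count files. They were *Acta2*, *Actg2*, *Myh11*, *Tagln*, *Cnn1*, *Des*, *Myl9*, *Lmod1*, *Mylk* and *Synpo2*. All 10 passed the filter on low counts in each of the 5 comparisons. The study measured 3′ RNA-seq counts in whole ovaries of FL1, an outbred mouse line selected over many generations for high fertility (litter size and litter weight at birth), and of ctrl, the unselected line bred from the same founder stock. Ovaries were collected in estrus and in diestrus, which were told apart by vaginal cytology, from females of about 77 days of age. Fat, tunica albuginea and oviduct were removed before RNA was isolated. There were 4 groups (ctrl estrus, FL1 estrus, ctrl diestrus and FL1 diestrus) with 5 animals each, and no group carried a transgene or received an agent. The genotype label was WT for ctrl and FL1 for the selected line, and the 20 libraries were grouped by the line and stage in their titles. Another label, the source name, reads FL1 even in the ctrl libraries and therefore gave no group. Each line is 1 breeding population, so selection and any other difference in the history of the lines cannot be told apart.

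Smooth muscle shortens when calcium and calmodulin activate myosin light chain kinase, which phosphorylates the regulatory light chain of myosin and lets the myosin heavy chain pull on actin filaments. In the ovary such cells form the theca externa, the contractile outer coat of a growing follicle, and the walls of arteries and arterioles. Contraction of the theca externa is known as part of follicle rupture at ovulation. The contractile genes are classic targets of serum response factor (*Srf*) and its coactivator myocardin (*Myocd*), which act through CArG boxes, short A- and T-rich elements flanked by CC and GG.

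RefSeq promoter windows (assembly GRCm38.p6) were at hand for 7 of the 10 genes. *Actg2*, *Myh11* and *Tagln* are named only. Of the 7, the windows of *Acta2* and *Myl9* are shown, because they held a CArG box or a CArG box with 1 core letter changed to G or C. The sequences run 5′ to 3′ over the 250 bases before the start of transcription, from chr19:34255374-34255623 on the minus strand and from chr2:156775214-156775463 on the plus strand, and capitals mark the CArG and CArG-like elements.
Acta2: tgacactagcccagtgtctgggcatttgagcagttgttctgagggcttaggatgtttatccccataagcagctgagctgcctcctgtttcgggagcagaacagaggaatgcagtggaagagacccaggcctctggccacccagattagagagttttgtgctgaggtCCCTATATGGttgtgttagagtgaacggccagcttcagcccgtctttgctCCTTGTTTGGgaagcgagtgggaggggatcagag
Myl9: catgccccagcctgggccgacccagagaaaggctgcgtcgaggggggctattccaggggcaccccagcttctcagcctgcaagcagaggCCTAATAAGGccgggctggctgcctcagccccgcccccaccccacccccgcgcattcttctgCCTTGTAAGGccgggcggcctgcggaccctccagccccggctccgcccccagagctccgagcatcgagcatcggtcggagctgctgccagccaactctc
*Myl9* held 1 CArG box, CCTAATAAGG, and 1 CArG-like element, CCTTGTAAGG. *Acta2* held 2 CArG-like elements, CCCTATATGG and CCTTGTTTGG. Searched on both strands, a CArG box was found in 1.63% of all 32851 promoter windows of 300 bases and the changed form in 8.5%. In the same windows TATAAA was found in 1 of the 7 genes (*Synpo2*) and in 13.6% of all promoters. CATTCC was found in 3 (*Acta2*, *Lmod1* and *Mylk*) and in 14.7% of all promoters. GGGCGG was found in 4 (*Des*, *Lmod1*, *Myl9* and *Synpo2*) and in 35.7%. A match is a description of letters in this window.

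Between 5991223 and 10352718 reads were counted per library (median 6957533). The 10 genes together took between 0.142% and 0.330% of them. Levels are given as CPM, counts per 1000000 counts of the library, with library sizes adjusted by TMM scaling over the 20 libraries. Reads come from transcript ends, so CPM values are not divided by gene length and are compared between groups, not between genes. Of tissue outside the ovary, 11 oviduct and uterus markers summed to between 23.4 and 63.3 CPM per library, 10 skeletal and heart muscle markers to between 4.97 and 15.1 CPM, and 7 fat markers to between 21.5 and 144 CPM. The 10 contractile genes summed to between 1499 and 3323 CPM. Fewer smooth muscle cells and less RNA per cell cannot be told apart in whole ovaries.

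Some libraries stood apart from their group in these genes. Ctrl diestrus replicate 1 was the highest of its 5 libraries in 10 of 10 genes, and its summed level was 2462 CPM against 1499 to 1753 CPM in the other 4. FL1 diestrus replicate 2 was the highest in 8 of 10 genes, with 2489 CPM against 1648 to 2235 CPM. Other transcripts moved with these libraries. *Edn2*, which encodes the vasoconstrictor peptide endothelin 2, had 7.66 CPM in ctrl diestrus replicate 1 and at most 1.98 CPM in the rest of that group, and 6.55 CPM in FL1 diestrus replicate 2 against at most 1.00 CPM. *Star*, which encodes the cholesterol carrier of steroid synthesis and was picked after its values were seen, had 2240 CPM in ctrl diestrus replicate 1 and 6271 to 7716 CPM in the other 4. Theca markers (6 genes: *Cyp17a1*, *Cyp11a1*, *Star*, *Hsd3b1*, *Insl3* and *Lhcgr*) summed to 16475 CPM in this library, against 25302 to 27058 CPM. Most are genes of steroid synthesis, and the list does not tell theca cells from other steroid-producing cells. Whether these differences had a part in the contractile genes' levels was not tested. In estrus, FL1 replicate 3 was the highest of its group in 9 of 10 genes (2976 CPM summed, against 2184 to 2751 CPM), and ctrl replicate 5 in 6 of 10 (3323 CPM, against 2208 to 3172 CPM). In ctrl estrus replicate 5 the theca markers summed to 23165 CPM, against 10851 to 18985 CPM, and the granulosa markers to 967 CPM, against 1777 to 2755 CPM. Stage and line differences of the 10 genes that change their call without 1 of the 2 diestrus libraries are given with and without it. Both were named for high levels of these same genes, so leaving 1 out raises the stage difference of its line by construction. Such values show dependence on 1 library and are no further evidence of a stage difference.

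**Figure D1:**
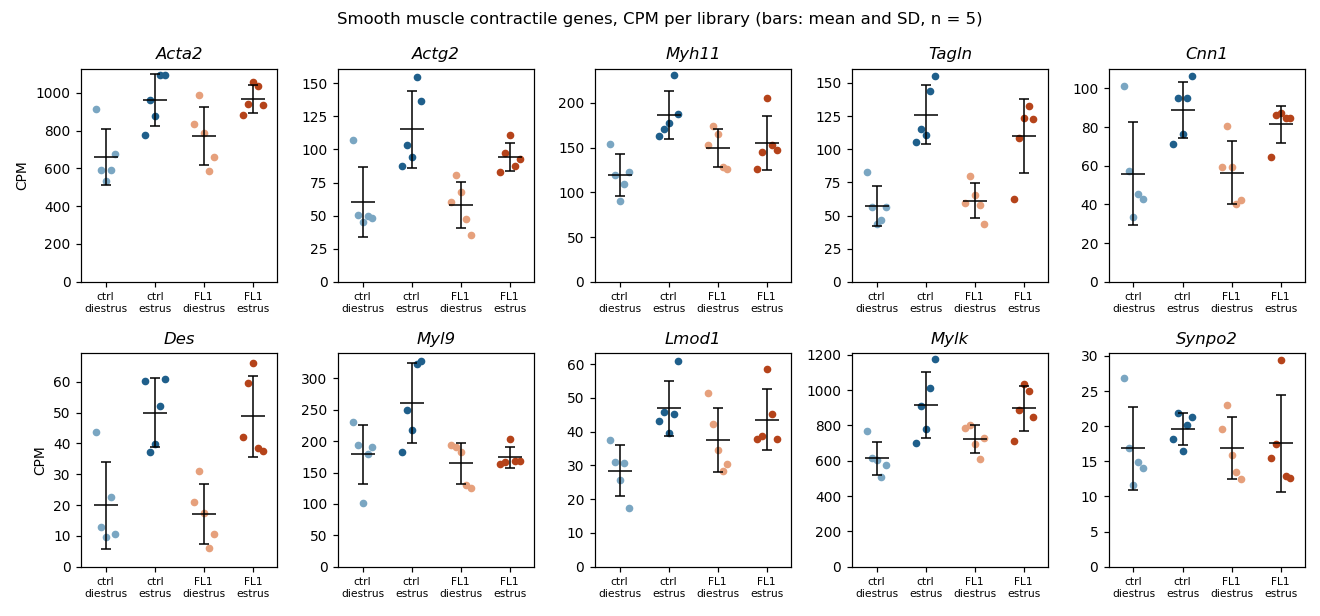
CPM (vertical axes, from 0) of the 10 contractile genes in ctrl diestrus, ctrl estrus, FL1 diestrus and FL1 estrus. Points are libraries in order of replicate number, and horizontal bars with whiskers give mean and SD (n = 5). Mean levels were higher in estrus than in diestrus for all 10 genes in both lines, and ctrl diestrus replicate 1 is the first point of its group, above the other 4 in every panel.

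Estrus and diestrus were compared within each line. In ctrl, 2 of the 10 genes (*Tagln* and *Myh11*) were stronger expressed in estrus, while 1.78% of all tested genes were called higher. In FL1, 4 of the 10 (*Des*, *Tagln*, *Actg2* and *Cnn1*) were stronger expressed in estrus, while 7.42% of all tested genes were called higher. None of the 10 was called lower in estrus in either line, where 1.06% (ctrl) and 8.49% (FL1) of all tested genes were. The fitted difference was above 0 for all 10 genes in both lines, with a median log2 fold change of 0.65 in ctrl and 0.32 in FL1. Over all tested genes the share above 0 was 49.1% in ctrl and 51.0% in FL1, with medians of -0.0058 and 0.0071. The libraries of the stages did not overlap for 3 genes in ctrl (*Myh11*, *Tagln* and *Lmod1*), where 2.86% of all tested genes were separated in this direction, and for 2 genes in FL1 (*Actg2* and *Des*), where it was 5.65%.

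The actin filament itself is built in smooth muscle from alpha actin and gamma actin. *Acta2* (ENSMUSG00000035783, chromosome 19, 34241090 to 34255590, GRCm38, minus strand) encodes smooth muscle alpha actin, and its promoter window is printed above. Its level in ctrl was 776, 961, 874, 1094 and 1093 CPM in the 5 estrus libraries and 912, 591, 535, 591 and 673 CPM in the 5 diestrus libraries. In FL1 it was 880.0, 938, 1057, 1034 and 936 CPM in estrus and 833, 986, 785, 588 and 662 CPM in diestrus. In both lines only the highest diestrus library (ctrl replicate 1 and FL1 replicate 2) reached into the range of the estrus libraries. The stage difference of *Acta2* did not pass the threshold in ctrl by the quasi-likelihood test of edgeR (log2 fold change 0.54, SE 0.15, adjusted p = 0.0882) or in FL1 (log2 fold change 0.33, SE 0.12, adjusted p = 0.0695, edgeR). Without ctrl diestrus replicate 1 it passed in ctrl (0.68, adjusted p = 0.0165, edgeR), and without FL1 diestrus replicate 2 it passed in FL1 (0.43, adjusted p = 0.0147, edgeR).

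*Actg2* (ENSMUSG00000059430, chromosome 6, 83512905 to 83536265, minus strand) encodes smooth muscle gamma actin, the actin isoform known best from visceral muscle. It had 82.7, 97.6, 111, 87.6 and 92.8 CPM in FL1 estrus and 60.1, 80.3, 67.7, 47.2 and 35.4 CPM in FL1 diestrus, and the 2 stages did not overlap. *Actg2* was stronger expressed in estrus in FL1 (1.62-fold, log2 fold change 0.69, SE 0.16, adjusted p = 0.00849, edgeR), and this held when any 1 library was left out. In ctrl it had 87.3, 103, 94.7, 155 and 136 CPM in estrus and 107, 50.6, 45.3, 50.1 and 48.4 CPM in diestrus. Ctrl diestrus replicate 1 lay within the estrus range and the other 4 below it. The difference in ctrl was 0.93 on the log2 scale (SE 0.24, adjusted p = 0.0603, edgeR) with all libraries and 1.24 (adjusted p = 0.00288, edgeR) without that library.

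Transgelin, calponin and leiomodin bind to the actin filament. *Tagln* (ENSMUSG00000032085, chromosome 9, 45929619 to 45936058, minus strand) encodes transgelin, an actin cross-linking protein and an early marker of smooth muscle cells. Its level in ctrl was 105, 115, 111, 144 and 155 CPM in estrus and 82.6, 56.2, 43.9, 47.0 and 56.4 CPM in diestrus. All ctrl estrus libraries lay above all ctrl diestrus libraries. In FL1 it was 62.4, 109, 123, 133 and 123 CPM in estrus and 59.7, 80.1, 65.1, 58.0 and 43.4 CPM in diestrus. FL1 estrus replicate 1 lay within the diestrus range and the other 4 estrus libraries above it. *Tagln* was the one gene of the 10 that was called higher in estrus in both lines, 2.19-fold in ctrl (log2 fold change 1.13, SE 0.17, adjusted p = 0.00417, edgeR) and 1.79-fold in FL1 (log2 fold change 0.84, SE 0.18, adjusted p = 0.00392, edgeR). Both calls held when any 1 library was left out. *Tagln* overlaps 2 annotated genes on the opposite strand, *Gm48529* and *Pcsk7*, and whether strand was used in counting is not given in the sources used here.

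*Cnn1* (ENSMUSG00000001349, chromosome 9, 22099216 to 22109630, plus strand) encodes calponin 1, which binds actin and dampens the myosin motor. Its level in FL1 was 64.5, 86.3, 87.2, 84.9 and 84.7 CPM in estrus and 59.1, 80.5, 59.5, 40.3 and 42.1 CPM in diestrus. FL1 diestrus replicate 2 had more *Cnn1* than FL1 estrus replicate 1, so the stages overlapped. *Cnn1* was 1.44-fold stronger expressed in FL1 estrus (log2 fold change 0.53, SE 0.16, adjusted p = 0.0295, edgeR). This call was lost when FL1 estrus replicate 2, 3, 4 or 5 or FL1 diestrus replicate 3, 4 or 5 was left out. In ctrl it had 71.3, 95.2, 76.2, 94.9 and 106 CPM in estrus and 101, 57.5, 33.3, 45.5 and 42.7 CPM in diestrus, with ctrl diestrus replicate 1 above 4 of the 5 estrus libraries. The ctrl difference moved from 0.65 (adjusted p = 0.201, edgeR) to 0.99 (adjusted p = 0.00991, edgeR) without this library.

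*Lmod1* (ENSMUSG00000048096, chromosome 1, 135324807 to 135368065, plus strand) encodes leiomodin 1, which nucleates actin filaments in smooth muscle. In ctrl its level was 43.1, 45.8, 39.6, 45.1 and 61.0 CPM in estrus and 37.5, 31.1, 25.7, 30.7 and 17.3 CPM in diestrus, and the stages did not overlap. The difference missed the threshold (log2 fold change 0.71, SE 0.19, adjusted p = 0.0642, edgeR) and passed it without ctrl diestrus replicate 1 (0.84, adjusted p = 0.0348, edgeR). In FL1 *Lmod1* ranged from 37.7 to 58.6 CPM in estrus and from 28.4 to 51.5 CPM in diestrus (log2 fold change 0.22, SE 0.17, adjusted p = 0.412, edgeR). *Lmod1* overlaps 1 annotated gene on the other strand, *Gm22796*.

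The motor and its switch were the next group. *Myh11* (ENSMUSG00000018830, chromosome 16, 14194535 to 14291372, minus strand) encodes the smooth muscle myosin heavy chain, the most specific marker of mature smooth muscle cells. Its level in ctrl was 163, 170.3, 177, 231 and 188 CPM in estrus and 155, 119, 90.6, 109.6 and 122 CPM in diestrus, without overlap. *Myh11* was 1.56-fold stronger expressed in ctrl estrus (log2 fold change 0.64, SE 0.14, adjusted p = 0.0313, edgeR). The call was lost when ctrl estrus replicate 2, 3 or 4 or ctrl diestrus replicate 2, 3, 4 or 5 was left out. In FL1 it had 126, 145, 206, 153 and 147 CPM in estrus and 153, 174, 165, 129 and 127 CPM in diestrus, and the ranges of the stages overlapped. The FL1 difference was 0.055 on the log2 scale (95% interval -0.21 to 0.31, adjusted p = 0.81, edgeR).

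*Myl9* (ENSMUSG00000067818, chromosome 2, 156775420 to 156781658, plus strand) encodes the regulatory myosin light chain, the protein that is phosphorylated when smooth muscle contracts. It had 183, 250.3, 218, 323 and 328 CPM in ctrl estrus and 231, 194, 102, 179 and 190.2 CPM in ctrl diestrus. In FL1 it had 164, 167, 203, 168 and 168 CPM in estrus and 193, 190.2, 182, 131 and 126 CPM in diestrus. The stages overlapped in both lines, and neither difference passed the threshold (ctrl log2 fold change 0.54, SE 0.21, adjusted p = 0.218; FL1 log2 fold change 0.079, SE 0.12, adjusted p = 0.709, edgeR).

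*Mylk* (ENSMUSG00000022836, chromosome 16, 34745210 to 35002420, plus strand) encodes myosin light chain kinase, which phosphorylates this light chain. It had 700.5, 908, 780.4, 1011 and 1174 CPM in ctrl estrus and 766, 613, 602, 507 and 578 CPM in ctrl diestrus. In FL1 it had 709, 889, 1035, 994 and 849.6 CPM in estrus and 784, 802, 694, 607 and 731 CPM in diestrus. Ctrl diestrus replicate 1 exceeded 1 of the ctrl estrus libraries, and 3 of the FL1 diestrus libraries exceeded the lowest FL1 estrus library. Neither difference of *Mylk* passed the threshold (ctrl log2 fold change 0.57, SE 0.15, adjusted p = 0.0652; FL1 log2 fold change 0.30, SE 0.11, adjusted p = 0.0615, edgeR). The ctrl difference passed without ctrl diestrus replicate 1 (0.67, adjusted p = 0.0363, edgeR) or without ctrl estrus replicate 1, and the FL1 difference without FL1 estrus replicate 1. *Mylk* overlaps 3 annotated genes on the opposite strand.

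Desmin and synaptopodin 2 belong to the scaffold that anchors the filaments. *Des* (ENSMUSG00000026208, chromosome 1, 75360329 to 75368579, plus strand) encodes desmin, the intermediate filament protein of muscle cells, and had the largest fitted stage difference of the 10 genes in both lines. In FL1 its level was 42.1, 59.7, 66.2, 38.5 and 37.6 CPM in estrus and 21.1, 31.2, 17.4, 6.10 and 10.5 CPM in diestrus, without overlap. *Des* was 2.81-fold stronger expressed in FL1 estrus (log2 fold change 1.49, SE 0.30, adjusted p = 0.00293, edgeR), and the call held when any 1 library was left out. In ctrl it had 60.2, 37.3, 39.7, 52.1 and 60.8 CPM in estrus and 43.6, 12.9, 9.63, 22.7 and 10.6 CPM in diestrus. Ctrl diestrus replicate 1 lay within the estrus range and the other 4 below it. The ctrl difference was 1.31 (SE 0.36, adjusted p = 0.0738, edgeR) and became 1.84 (adjusted p = 0.0033, edgeR) without that library. *Des* overlaps 1 annotated gene on the opposite strand, *Gm15179*.

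*Synpo2* (ENSMUSG00000050315, chromosome 3, 123076519 to 123236149, minus strand) encodes synaptopodin 2, an actin-bundling protein of dense bodies and Z-discs. Its mean level was between 16.8 and 19.6 CPM in the 4 groups, and all groups overlapped. The stage difference was 0.21 in ctrl (95% interval -0.25 to 0.66) and 0.053 in FL1 (95% interval -0.44 to 0.55). *Synpo2* overlaps 3 annotated genes on its own strand and 1 on the other, so part of its counts could belong to them.

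**Figure D2:**
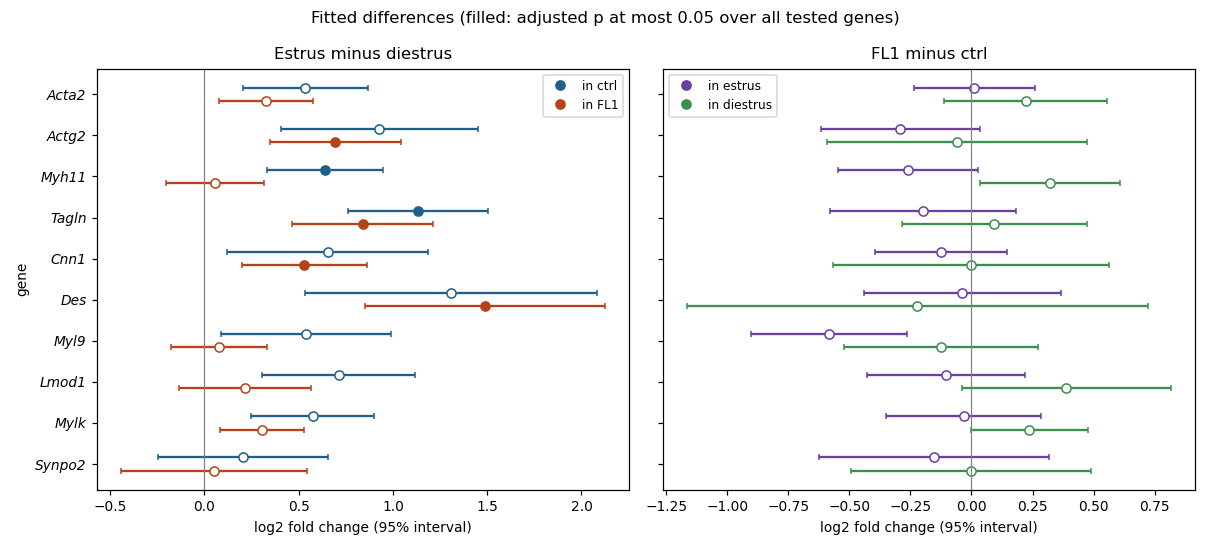
Fitted log2 fold changes of the 10 genes with 95% intervals (horizontal axes), estrus minus diestrus in ctrl and FL1 on the left and FL1 minus ctrl in estrus and diestrus on the right. Filled points passed the threshold of 0.05 over all tested genes. All points on the left lie above 0, with 2 filled in ctrl and 4 in FL1, and no point on the right is filled.

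Leaving out 1 library moved the counts for the stage in ctrl more than those in FL1. Without ctrl diestrus replicate 1, 8 of the 10 genes were called higher in ctrl estrus (all but *Myl9* and *Synpo2*), against 2 with all libraries. Without FL1 diestrus replicate 2, 5 genes were called in FL1 estrus (*Des*, *Actg2*, *Cnn1*, *Tagln* and *Acta2*), against 4. Both libraries were picked for high levels of these genes in diestrus, so larger stage differences without them were fixed in advance. Without ctrl estrus replicate 2, 3 or 4, or ctrl diestrus replicate 2, 3, 4 or 5, only *Tagln* remained in ctrl. In FL1, *Des*, *Actg2* and *Tagln* were called in each of the 10 runs with 1 library left out.

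Marker genes of other cell types of the ovary also differed between the stages. Of all tested genes, 7.42% were called higher and 8.49% lower in FL1 estrus, and 1.78% and 1.06% in ctrl estrus. A list with 1 called gene is not read as a result about that list. Stromal fibroblast markers, 8 genes of collagen-rich connective tissue, summed to between 4025 and 6434 CPM in ctrl estrus and between 2379 and 3438 CPM in ctrl diestrus. In FL1 they summed to between 3442 and 5682 CPM in estrus and between 2232 and 3039 CPM in diestrus. In this list 3 of 8 genes were called higher in estrus in ctrl and 6 of 8 in FL1, and none was lower. Theca markers ran the other way, with 2 of 5 tested genes lower in ctrl estrus and 5 of 5 lower in FL1 estrus. *Insl3* of this list had no counts in FL1, and these genes do not tell theca cells from other steroid-producing cells. Endothelial markers were lower in FL1 estrus for 6 of 8 genes and not called in ctrl. Their summed level was 302 to 388 CPM in FL1 estrus and 491 to 629 CPM in FL1 diestrus, with no gene at 0, and none of the 8 was called for the line-by-stage interaction. Of the pericyte markers, *Kcnj8*, a potassium channel subunit, was the one of 8 tested that was called in FL1 (lower in estrus), and *Mcam*, a cell adhesion molecule, the one of 9 in ctrl (higher in estrus). Both were called in 2 of 10 runs with 1 library left out. Oviduct and uterus markers had 2 of 3 tested genes higher in FL1 estrus (43.6 to 63.3 CPM summed, against 23.4 to 41.6 CPM in diestrus), and these were the epithelial genes *Krt7* and *Epcam*. *Foxj1* and *Ovgp1*, which define oviduct epithelium, had at most 2.36 and 1.82 CPM in any library, and neither marks oviduct muscle. Granulosa markers were lower in estrus for 1 of 6 genes in ctrl and 3 of 6 in FL1, and blood markers for 0 of 5 and 4 of 5. Of the fat markers, 1 of 5 tested was higher in FL1 estrus, and the 7 genes of this list summed to 65.5 to 144 CPM there and to 25.7 to 59.5 CPM in FL1 diestrus. The part of these shifts in the contractile genes' levels was not tested.

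The lines were then compared, first in estrus and then in diestrus. None of the 10 genes was called in estrus, where 2.33% of all tested genes were, and none in diestrus, where 4.11% were (edgeR, adjusted p). At an unadjusted p under 0.05, 1 of the 10 passed in each stage (*Myl9* in estrus, *Myh11* in diestrus). In estrus the fitted difference was below 0 for 9 of 10 genes with a median of -0.14, against -0.0052 over all genes. In diestrus it was above 0 for 5 of 10 with a median of 0.046, against -0.0093 over all genes. The balance in estrus also moved with single libraries. Without ctrl estrus replicate 5, 4 of 10 genes were above 0 (median -0.077), and without FL1 estrus replicate 1 it was 3 of 10 (median -0.056). Without ctrl estrus replicate 3 or FL1 estrus replicate 3 it was 0 of 10, with medians of -0.19 and -0.24. In no gene did the 5 FL1 libraries separate from the 5 ctrl libraries in either stage, where 4.88% (estrus) and 5.45% (diestrus) of all tested genes did.

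*Myl9* had the lowest unadjusted p of the 10 between the lines. Its mean was 174 ± 16.3 CPM in FL1 estrus and 260.6 ± 64.2 CPM in ctrl estrus (SD, n = 5), and ctrl estrus replicate 1 lay within the FL1 range. The log2 fold change was -0.58 (95% interval -0.90 to -0.26, adjusted p = 0.0615, edgeR). It passed the threshold with DESeq2 (adjusted p = 0.0122) and without ctrl estrus replicate 1 (-0.69, adjusted p = 0.0183, edgeR). In diestrus *Myl9* differed by -0.13 (95% interval -0.52 to 0.27). *Myh11* was 149 ± 21.2 CPM in FL1 diestrus and 119 ± 23.3 CPM in ctrl diestrus, a log2 fold change of 0.32 (SE 0.13, adjusted p = 0.218, edgeR). Without ctrl diestrus replicate 1 this was 0.43 (adjusted p = 0.0579, edgeR). For *Acta2*, the intervals of the line difference ran from -0.24 to 0.26 in estrus and from -0.11 to 0.56 in diestrus.

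The balance of directions in diestrus moved with single libraries, among them the 2 named above. Without ctrl diestrus replicate 1, 9 of 10 genes were above 0 in FL1 (median 0.32), without FL1 diestrus replicate 2 it was 4 of 10 (median -0.082), and without both it was 8 of 10 (median 0.16). It was also 8 of 10 without FL1 diestrus replicate 4 (median 0.11) or replicate 5 (median 0.14). Without ctrl diestrus replicate 3 or 4 it stayed 5 of 10, with medians of -0.050 and -0.0077. No gene was called in any of these fits.

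A test of the line-by-stage interaction asked whether the stage difference itself differed between FL1 and ctrl. None of the 10 genes was called, and 0.0565% of all tested genes were (8 of 14154, edgeR). The fitted interaction was below 0 for 9 of 10 genes, meaning a smaller difference between the stages in FL1, with a median of -0.25 against 0.0085 over all genes. *Myh11* had the only unadjusted p under 0.05 (log2 fold change -0.58, SE 0.20, adjusted p = 0.24, edgeR). The calls of *Myh11* in ctrl only and of *Des*, *Actg2* and *Cnn1* in FL1 only were therefore not shown to differ between the lines. For *Des* the interaction was 0.19 (95% interval -0.89 to 1.26), -0.35 without ctrl diestrus replicate 1 and 0.52 without FL1 diestrus replicate 2.

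**Figure D3:**
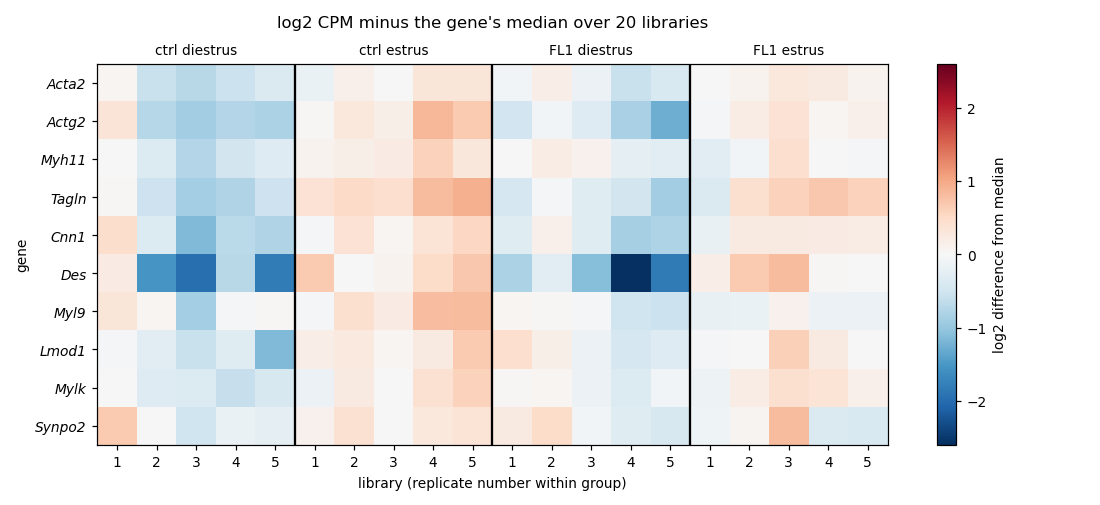
log2 CPM of the 10 genes (rows) in the 20 libraries (columns, replicates 1 to 5 of each group), minus the gene's median over all libraries. Red is above and blue below the median. Diestrus columns are mostly blue, and ctrl diestrus replicate 1 and FL1 diestrus replicate 2 stand out as red or pale columns among them.

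The 10 genes varied together between animals of 1 group. With group means subtracted from log2 CPM, 45 of 45 pairs of genes had a positive Pearson's r over the 20 libraries, with a median of 0.74 (0.45 to 0.89). The median was 0.60, and 45 of 45 pairs stayed positive, without ctrl diestrus replicate 1 and FL1 diestrus replicate 2, the 2 libraries farthest from the median. The group means were not computed anew without these 2 libraries. The other diestrus libraries therefore keep a shared offset, and part of the effect of the 2 remains in these values. These points share library depth and scaling, and the values are descriptions. The biological coefficient of variation within groups (edgeR's estimate) ran from 0.160 for *Mylk* to 0.402 for *Des* with a median of 0.210, and all 10 lay above 0.144, the median of 7737 genes within the same range of mean expression.

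Of 14144 genes compared with the mean of the 10 over the 20 libraries, *Tpm2*, which encodes beta tropomyosin of the thin filament, was most alike (r = 0.93, and 0.90 without the 2 farthest libraries). Values without those 2 libraries again kept the group means of all 20 libraries. The next, each with the value without those 2 libraries in second place, were *Camkk1*, a calcium/calmodulin-dependent kinase kinase (0.84 and 0.83), *Litaf* (0.82 and 0.67), *Dpt*, the matrix protein dermatopontin (0.79 and 0.68), and *Tmem127* (0.79 and 0.78). *Ank* (0.77 and 0.63), *Rbpms2*, an RNA-binding protein of smooth muscle (0.77 and 0.62), *Csrp1*, a LIM protein of the actin cytoskeleton (0.76 and 0.68), *Pinx1* (0.75 and 0.55) and *Prkg2*, a cGMP-dependent kinase (0.74 and 0.48) followed. *Prkg2* had 44.4 CPM in ctrl diestrus replicate 1 and 0.451 to 1.69 CPM in the other 4 libraries of that group. *Camkk1* had a mean of only 2.12 CPM over the 20 libraries, with 8 to 29 counts per library, so its r rests on few reads.

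Further genes of the contractile apparatus were grouped by their function. Beside the stage counts of these lists stand the shares over all tested genes. They were 7.42% higher and 8.49% lower in FL1 estrus, and 1.78% and 1.06% in ctrl estrus. Of 24 filament-associated genes, 9 were called higher in FL1 estrus and 2 in ctrl estrus, and none was lower. The median log2 fold change of this list was 0.29 in FL1 and 0.27 in ctrl. *Tpm2* was higher in estrus in ctrl (log2 fold change 0.88, SE 0.18, adjusted p = 0.0181, edgeR) and in FL1 (log2 fold change 0.69, SE 0.13, adjusted p = 0.00199, edgeR), and so was *Csrp1* (0.84 in ctrl and 0.62 in FL1). With 1 library left out, the ctrl calls were made in 6 of 10 runs for *Tpm2* and in 7 of 10 for *Csrp1*. The 9 in FL1 also held *Mustn1* (1.22), *Hspb6*, a small heat shock protein of smooth muscle (0.78), and *Jph2*, which joins the plasma membrane to the calcium store (0.99). None of the list was called between the lines in either stage.

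Paralogs of the 10 genes, which are used in non-muscle or other muscle cells, had 3 of 9 tested genes higher in FL1 estrus (*Cnn2*, *Cnn3* and *Vim*) and 1 of 10 in ctrl estrus (*Cnn3*). The median log2 fold change of this list was also above 0, at 0.18 in FL1 and 0.39 in ctrl. *Vim* encodes vimentin, the intermediate filament protein of mesenchymal cells, and had a log2 fold change of 0.48 in FL1 and 0.44 in ctrl (adjusted p = 0.00197 and 0.0902, edgeR). Between the lines, the cardiac actin gene *Actc1* was lower in FL1 estrus, with 0.147, 0.601, 0.315, 0.888 and 0.857 CPM against 4.16, 1.82, 1.83, 10.9 and 7.22 CPM in ctrl (log2 fold change -3.19, SE 0.60, adjusted p = 0.0123, edgeR). In diestrus *Tagln2* (0.40) and *Synpo* (0.40) were higher in FL1, and each was called in 2 of 10 runs with 1 library left out.

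Of 21 tested genes that set the strength of contraction, 1 was higher and 4 were lower in FL1 estrus, and none was called in ctrl. Over all tested genes 7.42% were higher and 8.49% lower in FL1 estrus. *Ppp1r14a*, which encodes the myosin phosphatase inhibitor CPI-17, was the one that was higher (log2 fold change 0.78, SE 0.14, adjusted p = 0.00152, edgeR). The 4 that were lower included *Rock1*, *Itpr1*, a calcium release channel, and *Atp2b4*, a calcium pump, with log2 fold changes of -0.37, -0.34 and -0.46. The call of *Itpr1* was made in 4 of 10 runs with 1 library left out. Between the lines 1 of the 21 was called, *Atp2b4* in diestrus (higher in FL1, 0.37, called in 2 of 10 such runs). In that comparison 4.11% of all tested genes were called.

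**Figure D4:**
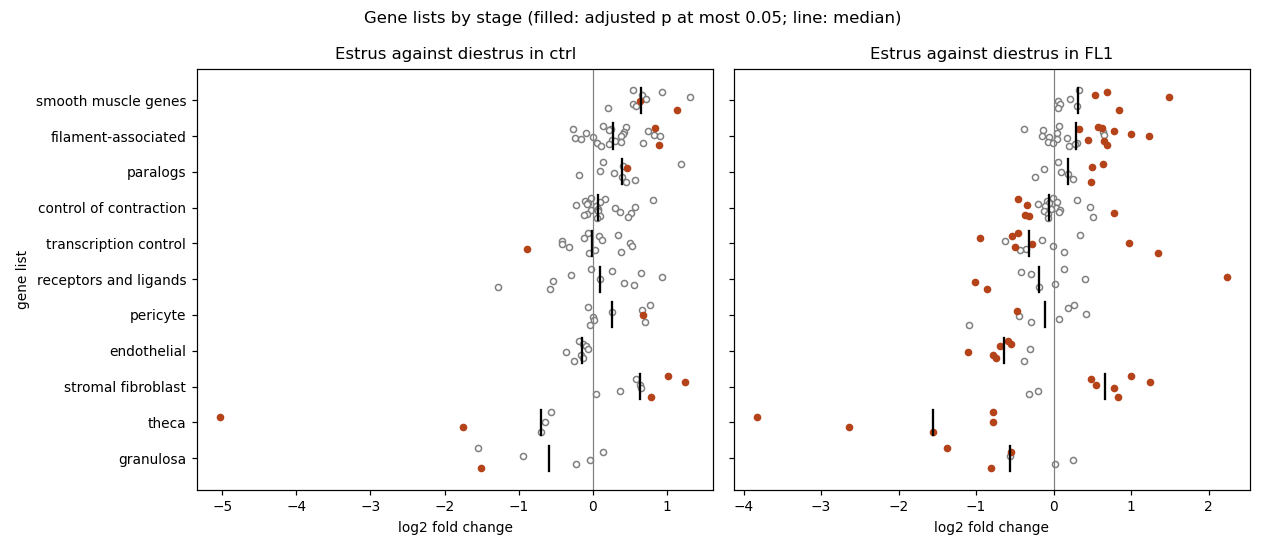
log2 fold changes of estrus against diestrus (horizontal axes) for the genes of 11 lists in ctrl (left) and FL1 (right). Filled points passed the threshold of 0.05 over all tested genes and vertical lines are medians. The contractile, filament-associated, paralog and stromal lists have medians above 0 in both lines. Medians of the transcription control, theca, granulosa and endothelial lists are below 0 in both.

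Regulators of transcription of these genes did not share 1 direction. In FL1 estrus 2 of 14 tested were higher (*Srf* and *Klf5*) and 5 were lower, among them *Hey1* and *Gata6*, and in ctrl estrus 1 was lower (*Myocd*). *Myocd* was the clearest difference between the lines on this list. Its level was 23.1, 26.9, 19.0, 23.4 and 24.6 CPM in FL1 estrus and 8.86, 11.8, 8.37, 9.72 and 9.16 CPM in ctrl estrus, so the lowest FL1 library was above the highest ctrl library. In diestrus it was 34.4, 25.6, 31.9, 29.2 and 27.9 CPM in FL1 and 21.8, 12.1, 17.8, 19.0 and 17.9 CPM in ctrl, again without overlap. *Myocd* was 2.44-fold higher in FL1 in estrus (log2 fold change 1.29, SE 0.16, adjusted p = 0.000394, edgeR) and 1.68-fold higher in diestrus (log2 fold change 0.75, SE 0.15, adjusted p = 0.0126, edgeR), in each run with 1 library left out as well. Across the stages *Myocd* was lower in ctrl estrus (log2 fold change -0.89, SE 0.18, adjusted p = 0.0207, edgeR), opposite in sign to the contractile genes. This call was made in 6 of 10 runs with 1 library left out. In FL1 the stage difference of *Myocd* was -0.35 (adjusted p = 0.0686, edgeR), and the interaction was not called (adjusted p = 0.3, edgeR). The order of the 4 group means was FL1 diestrus, FL1 estrus, ctrl diestrus and ctrl estrus. The correlation of *Myocd* with the mean of the 10 genes, group means subtracted, was 0.11 over the 20 libraries. *Srf* had 5.89, 4.66, 6.09, 6.66 and 10.2 CPM in FL1 estrus and 3.87, 4.59, 1.26, 0.709 and 2.67 CPM in FL1 diestrus (log2 fold change 1.34, SE 0.40, adjusted p = 0.0297, edgeR). The *Srf* call was made in 5 of 10 runs with 1 library left out, and the correlation of *Srf* with the 10 genes was -0.073.

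Receptors and ligands that act on smooth muscle had 1 of 9 tested genes higher and 2 lower in FL1 estrus, and none of 11 called in ctrl. Over all tested genes 7.42% were higher and 8.49% lower in FL1 estrus. *Edn2* had 15.6, 14.3, 2.42, 5.62 and 5.36 CPM in FL1 estrus and 0.574, 6.55, 0.473, 0.142 and 1.00 CPM in FL1 diestrus (log2 fold change 2.23, SE 0.69, adjusted p = 0.0374, edgeR), with FL1 diestrus replicate 2 within the estrus range. The *Edn2* difference was 3.96 without that library, and the call was made in 4 of 10 runs with 1 library left out. *Ednrb*, an endothelin receptor, was lower in FL1 estrus (log2 fold change -1.01, SE 0.15, adjusted p = 0.000241, edgeR), as was *Ptgfr*, the prostaglandin F receptor (-0.86). None of the receptors and ligands was called between the lines. The pericyte marker *Rgs5*, which encodes a regulator of G protein signalling, was lower in FL1 estrus than in ctrl estrus (47.5 ± 10.0 against 127 ± 45.4 CPM, SD, n = 5), without overlap (log2 fold change -1.41, SE 0.21, adjusted p = 0.0023, edgeR). It was the only one of 8 tested pericyte markers called in estrus, and the pericyte list summed to 153 to 218 CPM in FL1 estrus and to 219.8 to 377 CPM in ctrl estrus. This sum includes *Rgs5* itself and is no separate result. In diestrus 1 of 8 tested pericyte markers was called between the lines, *Kcnj8*, and it was higher in FL1. Its log2 fold change was 0.72 (0.67 to 0.78 with 1 library left out), and the median of the list there was 0.0085.

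**Figure D5:**
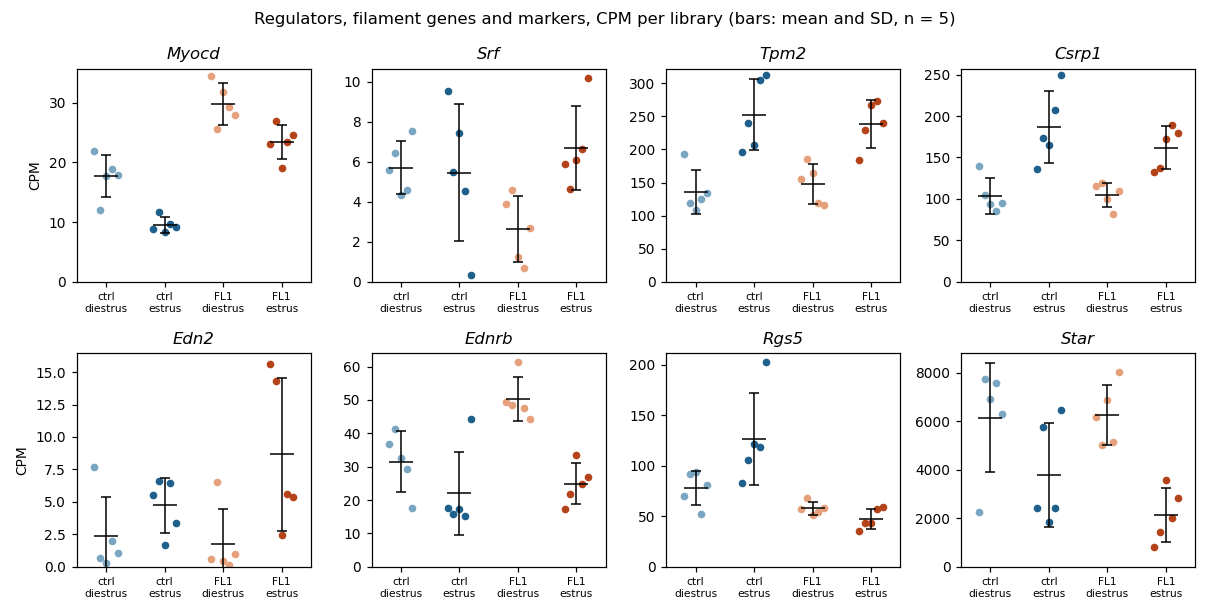
CPM (vertical axes, from 0) of *Myocd*, *Srf*, *Tpm2*, *Csrp1*, *Edn2*, *Ednrb*, *Rgs5* and *Star* in the 4 groups. Points are libraries in order of replicate number and bars with whiskers are mean and SD (n = 5). *Myocd* lies higher in FL1 than in ctrl in both stages, while *Tpm2* and *Csrp1* have higher means in estrus in both lines.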

How the data were processed

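Total RNA of 20 whole ovaries was turned into QuantSeq 3′ libraries and sequenced by the authors, who aligned reads with STAR to GRCm38 and deposited read counts per Ensembl gene and animal. The submitters' processing notes also name Cuffdiff. The counting tool and its strand setting are not given in the sources used here. Counts were read as deposited, with no normalization. Replicates are separate animals. Of 54838 genes, 54809 were found in the GENCODE annotation of GRCm38. Libraries of a group differed in counts by more than sampling noise in 40 of 40 pairs.

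Each comparison was fitted over all genes with edgeR's quasi-likelihood test (TMM scaling, filterByExpr with a minimum count of 10), on the 10 libraries compared, and genes were called where p, adjusted by the method of Benjamini and Hochberg, did not exceed 0.05. The interaction used all 20 libraries. CPM used TMM factors over 20 libraries, and log2 CPM a prior count of 2. Alternatives were DESeq2, limma-voom with sample weights, RLE size factors, no filter on low counts, replicate number as a block, 1 fit of all 20 libraries and leaving out each library. Leaving out ctrl diestrus replicate 1 and FL1 diestrus replicate 2 together was added after the data were seen. Named genes were the 10 genes and genes that define another tissue. Of each other list, genes were named from the at most 4 called genes per comparison with the largest absolute log2 fold change. Not all of these 4 were named each time, so a named gene is not always the strongest of its list. The members and lists were chosen with earlier results of these data known. Depth limits low genes most, and the spread between 5 animals limits the rest.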

Additional observations from a re-analysis of the deposited data

Results flagged for a closer look

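A library was set apart when its gap to the nearest of its 5-library group, divided by the group's range, exceeded Dixon's 95% critical value of 0.71. Of 40 groups of 5 libraries checked for the 10 contractile genes, 5 held such a library. A rate of about 1 in 20 would hold for independent, normally distributed values. These genes vary together and were checked as CPM, so the count cannot be set against that rate. *Actg2* had 106.9 CPM in ctrl diestrus replicate 1, against 45.3 to 50.6 CPM in the other 4. *Cnn1* had 64.5 CPM in FL1 estrus replicate 1, below 84.7 to 87.2 CPM. *Myl9* had 203 CPM in FL1 estrus replicate 3, above 164 to 168 CPM, and *Synpo2* had 29.4 CPM in the same library, above 12.6 to 17.4 CPM. *Lmod1* had 61.0 CPM in ctrl estrus replicate 5, above 39.6 to 45.8 CPM.

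Genes of the other lists held 14 further libraries of this kind among the groups checked (244 in all, members included). In ctrl diestrus replicate 1 these were *Edn2*, at 7.66 CPM, and *Star*, at 2240 CPM, the first high and the second low. In FL1 diestrus replicate 2 *Edn2* (6.55 CPM) and *Hey1* (13.9 CPM) were high, and *Kdr* (125 CPM) and *Lhcgr* (342 CPM) were low. Ctrl estrus replicate 5 was high in *Ednrb* (44.2 CPM), *Pecam1* (122 CPM) and *Fabp4* (33.6 CPM). The remaining values were high and lay in single genes. They were 1208 CPM of *Vim* in ctrl estrus replicate 4, 63.1 CPM of *Ppp1r14a* in FL1 diestrus replicate 5, 37.8 CPM of *Cyp17a1* in ctrl estrus replicate 3, 85.8 CPM of *Hba-a2* in FL1 estrus replicate 2, and 8.47 CPM of *Hba-a2* in ctrl diestrus replicate 5.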

How the results depend on the processing

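The sign of the stage difference was kept for all 10 genes in ctrl under each alternative, while its size and the number of calls depended on single libraries and on the fit. In ctrl estrus against diestrus, 2 of the 10 genes were called, 6 with DESeq2, 7 with limma-voom, 6 with no filter on low counts and 7 with 1 fit of all 20 libraries, and between 1 and 8 when 1 library was left out (8 without ctrl diestrus replicate 1). In FL1, 4 were called, 2 with 1 fit of all 20 libraries (*Tagln* and *Des*), and between 3 and 5 when 1 library was left out. Between the lines in estrus, 0 became 1 with DESeq2 and 1 with no filter (*Myl9*), and 0 to 1 with 1 library left out. In diestrus and for the interaction 0 of the 10 were called under each alternative. Over all genes, 311 calls in estrus became 670 with DESeq2, 477 with no filter, 531 with 1 fit of all libraries and 175 to 418 with 1 library left out. The 545 calls in diestrus became 891 with DESeq2, 846 with no filter and 349 to 594 with 1 library left out. The 380 calls for the stage in ctrl became 771 with DESeq2, 655 with limma-voom, 909 with 1 fit of all libraries and 176 to 516 with 1 library left out. The 8 calls of the interaction became 148 with DESeq2, 31 with limma-voom, 17 with no filter, 13 without ctrl diestrus replicate 1 and FL1 diestrus replicate 2, and 0 to 15 with 1 library left out. The 2123 calls for the stage in FL1 ranged from 1582 to 2316 with 1 library left out. The cause of these shifts was not tested.

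Differences close to 0, none of them called, changed sign. Between the lines in estrus, *Mylk* was 0.075 with limma-voom, and with 1 library left out *Acta2* ran from -0.055 to 0.068, *Des* from -0.17 to 0.044, *Lmod1* from -0.23 to 0.011 and *Mylk* from -0.11 to 0.079. In diestrus, *Actg2* was 0.036 with limma-voom and 0.11 without the 2 libraries that stood apart. *Cnn1* in diestrus was 0.0060 with DESeq2, 0.11 with limma-voom, 0.00011 in 1 fit of all libraries and 0.17 without those 2, and *Synpo2* was 0.0022, 0.044, 0.00038 and 0.10 in the same order. With 1 diestrus library left out, *Actg2* ran from -0.20 to 0.26, *Tagln* from -0.022 to 0.27, *Cnn1* from -0.17 to 0.33, *Des* from -0.55 to 0.31 and *Synpo2* from -0.14 to 0.24. For the stage in FL1, *Synpo2* was -0.051 with limma-voom and ran from -0.22 to 0.19, and *Myh11* from -0.064 to 0.13. The interaction of *Des* was -0.014 without the 2 libraries and ran from -0.35 to 0.52, and that of *Cnn1* from -0.45 to 0.043.

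No general pairing of animals by replicate number was seen: the correlation of the deviations of libraries with the same number lay between -0.11 and 0.14. These correlations run over all tested genes, so they cannot exclude a pairing that touched few genes. With replicate number as a block, 2 of the 10 genes were called in ctrl (*Tagln* and *Des*), 4 in FL1 (*Des*, *Actg2*, *Cnn1* and *Tagln*) and 0 in the other comparisons. Under the block, the line difference in diestrus was 0.063 for *Cnn1* and 0.026 for *Synpo2*.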
